A study of Mus musculus with 6 samples.

Results

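The transcript levels of 9 epithelial ion transport genes were compared in intestinal crypts of wild-type (WT) mice and of mice labelled Mtg16 KO. The genes were picked by name as transporters of sodium, chloride and bicarbonate, a potassium channel that serves chloride secretion and a subunit of the sodium pump, and all 9 were present among the 24736 genes of the deposited RNA sequencing table. The study examined how the co-repressors MTG8 and MTG16 act on intestinal stem cells and their descendants. Crypts were released with cold EDTA from the whole length of the gut of males aged 12 weeks, with 3 mice in each genotype and 1 library per mouse, and libraries were built from total RNA after removal of ribosomal RNA. The sample labels call the knockout CRISPR-induced, whereas the paper describes Mtg16 null mice obtained as a gift, and neither names a Cre or another driver that would restrict the loss to the epithelium. Values are in TPM, a measure of transcript abundance scaled for transcript length and to the same total in every library, so the sequencing depth is unknown.

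Cbfa2t3, the gene that encodes MTG16, was measured at 3.67, 6.69 and 4.52 TPM in WT replicates 1 to 3 and at 4.62, 6.43 and 3.23 TPM in the libraries labelled Mtg16 KO. The groups overlapped, with a difference of -0.06 on the log2(TPM + 1) scale (95% interval -0.68 to 0.57). The exons removed in these mice are not given in the sources used here, and a TPM value covers the whole gene, so this level does not tell the genotypes apart. The groups therefore rest on the labels, and every direction given here is that of the libraries labelled Mtg16 KO against WT.

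In the intestine, chloride secretion and sodium chloride absorption are divided along the crypt-villus axis. Crypt cells take up chloride across the basolateral membrane through the cotransporter NKCC1 (Slc12a2) and release it into the lumen through the channel CFTR (Cftr), while potassium recycling through channels such as KCNQ1 (Kcnq1) keeps the driving force. Enterocytes nearer the villus absorb sodium through the brush border exchangers NHE3 (Slc9a3) and NHE2 (Slc9a2), coupled to chloride/bicarbonate exchange by DRA (Slc26a3) and PAT1 (Slc26a6). The cotransporter NBCe1 (Slc4a4) brings bicarbonate in across the basolateral membrane, and the sodium pump, to which Atp1b1 gives the beta subunit, runs the gradients. Slc4a4 and Atp1b1 were counted in neither the secretion nor the absorption group.

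The 3 secretion genes had higher values in every library labelled Mtg16 KO than in any WT library, and the 4 absorption genes had lower means, of which Slc9a3 and Slc26a6 were lower without overlap. All 9 genes passed the filter of a mean of at least 1 TPM, as did 12268 genes in all, and 0 of the 9 were called at an adjusted p under 0.1 in limma, where 4 genes or 0.0326% of all tested genes were called. Those 4, named because they are so few, were Ces1c (log2 difference 2.12), Cirbp (1.22), Creld2 (-1.15) and Klhdc4 (-1.32), so 2 were higher and 2 lower; after median-ratio rescaling 1 higher and 0 lower were called. At an unadjusted p under 0.05, 3 of the 9 transport genes were higher, against 6.53% of all tested genes, and 2 were lower, against 8.05%. The groups did not overlap for the same 5 genes, 3 higher and 2 lower, whereas 9.94% of all tested genes were higher and 11.1% lower without overlap. The 9 genes were chosen with results known, so these counts are descriptions, and with 3 mice against 3 a two-sided exact permutation test cannot give a p below 0.1. The number with an unadjusted p under 0.05 was 1 of 9 without Mtg16 KO replicate 2, 4 without Mtg16 KO replicate 3 and 6 without Mtg16 KO replicate 1, and it was 5 when any WT library was left out. With all 6 libraries, this count was 3 without a filter on low values and 8 with the replicate number as a block.

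**Figure D1:**
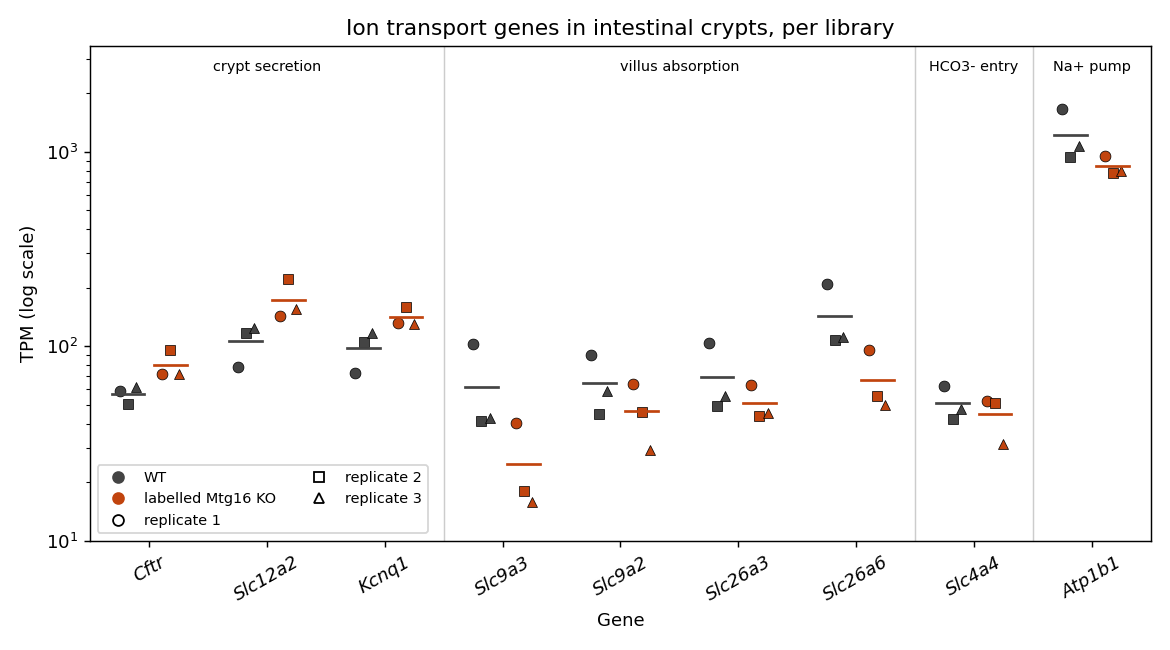
TPM of the 9 ion transport genes in each library on a log axis, with grey symbols for WT, red symbols for libraries labelled Mtg16 KO, a symbol shape for each replicate number and a line at each group's mean of 3 libraries. All red symbols lie above all grey ones for Cftr, Slc12a2 and Kcnq1 and below them for Slc9a3 and Slc26a6, while the groups overlap for the other 4 genes.

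Cftr, the luminal chloride channel of the crypt, was measured at 58.7, 50.1 and 61.7 TPM in WT replicates 1 to 3 and at 71.7, 96.1 and 72.1 TPM in the libraries labelled Mtg16 KO. The groups were separate, and Mtg16 KO replicate 2 stood above both other libraries of its group. The mean was 56.9 ± 6.0 TPM in WT and 79.9 ± 14.0 TPM in Mtg16 KO (SD, n = 3 each). The log2(TPM + 1) difference was 0.48 (95% interval 0.12 to 0.83), with an adjusted p of 0.280 in limma.

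Slc12a2, the basolateral sodium-potassium-chloride cotransporter, was measured at 78.3, 117 and 124 TPM in WT and at 142, 222 and 155 TPM in the libraries labelled Mtg16 KO. WT replicate 1 was the lowest of the 6 libraries, Mtg16 KO replicate 2 was the highest, and the groups did not overlap. The means were 106 ± 24.5 and 173 ± 42.8 TPM, a ratio of 1.63 (SD, n = 3 each). Its log2 difference of 0.70 (95% interval 0.17 to 1.22) was the highest among the 9 genes, with an adjusted p of 0.279 in limma.

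Kcnq1, a basolateral potassium channel, was measured at 73.1, 105 and 117 TPM in WT and at 132, 159.9 and 131 TPM in the libraries labelled Mtg16 KO. The same 2 libraries lay at the extremes as for Slc12a2, WT replicate 1 at the bottom and Mtg16 KO replicate 2 at the top, and the groups were separate. The log2 difference was 0.53 (95% interval 0.10 to 0.97; adjusted p = 0.296, limma). With 1 library left out it ranged from 0.34 without WT replicate 1 to 0.67 without WT replicate 3.

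Slc9a3, the brush border sodium/proton exchanger that carries much of intestinal sodium absorption, was measured at 102, 41.2 and 42.7 TPM in WT and at 40.3, 18.1 and 15.7 TPM in the libraries labelled Mtg16 KO. WT replicate 1 was far above both other WT libraries, and Mtg16 KO replicate 1 came within 1 TPM of the lowest WT library, so the groups were separate by a narrow gap. The means were 62.0 ± 34.7 and 24.7 ± 13.6 TPM (SD, n = 3 each), a ratio of 0.398. The log2 difference of -1.28 (95% interval -2.28 to -0.29) was the most negative among the 9 genes, with an adjusted p of 0.282 in limma. Without WT replicate 1 the difference was -0.86, and without Mtg16 KO replicate 1 it was -1.69. In such bulk samples, fewer enterocytes in the preparation and less transcript in each enterocyte cannot be told apart.

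Slc9a2, a further apical sodium/proton exchanger, was measured at 89.6, 45.0 and 58.9 TPM in WT and at 64.3, 45.6 and 29.1 TPM in the libraries labelled Mtg16 KO. Mtg16 KO replicate 1 exceeded both WT replicates 2 and 3, and the groups overlapped. The log2 difference was -0.48 (95% interval -1.23 to 0.26; adjusted p = 0.501, limma), and with 1 library left out it ranged from -0.75 without Mtg16 KO replicate 1 to -0.19 without Mtg16 KO replicate 3, with -0.22 without WT replicate 1. Among the sodium/proton exchangers, the ratio of Slc9a3 to Slc9a2 in TPM was 1.14, 0.916 and 0.726 in WT and 0.627, 0.396 and 0.540 in the libraries labelled Mtg16 KO. This ratio was lower in every library labelled Mtg16 KO than in any WT library, although Slc9a2 itself overlapped.

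Slc26a6, the apical anion exchanger PAT1, was measured at 209, 108 and 112 TPM in WT and at 95.6, 55.4 and 49.8 TPM in the libraries labelled Mtg16 KO. As for Slc9a3, replicate 1 was the highest library of each group, and the groups did not overlap. The means were 143 ± 57.1 and 66.9 ± 24.99 TPM (SD, n = 3 each), with a log2 difference of -1.07 (95% interval -1.80 to -0.34; adjusted p = 0.263, limma). It was -0.77 without WT replicate 1 and -1.36 without Mtg16 KO replicate 1.

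Slc26a3, the chloride/bicarbonate exchanger DRA of the same family, was measured at 104, 49.3 and 55.6 TPM in WT and at 63.4, 43.7 and 45.2 TPM in the libraries labelled Mtg16 KO. Here the groups overlapped, with Mtg16 KO replicate 1 above WT replicates 2 and 3. The log2 difference was -0.39 (95% interval -1.04 to 0.26; adjusted p = 0.529, limma), and with 1 library left out it ranged from -0.59 without WT replicate 2 to -0.06 without WT replicate 1. Slc26a6 was 2.01, 2.19 and 2.00 times as abundant as Slc26a3 in WT and 1.51, 1.27 and 1.10 times as abundant in the libraries labelled Mtg16 KO. This ratio of the exchangers varied less among the WT mice than either gene did, at 2.07 ± 0.102 against 1.29 ± 0.204 (SD, n = 3 each), and did not overlap between the groups. Both this ratio and that of Slc9a3 to Slc9a2 were chosen with the values known and were not tested.

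Slc4a4, which brings sodium and bicarbonate into the cell across the basolateral membrane, was measured at 62.2, 42.4 and 47.7 TPM in WT and at 51.9, 51.3 and 31.3 TPM in the libraries labelled Mtg16 KO. Its groups overlapped, and 2 libraries labelled Mtg16 KO exceeded WT replicates 2 and 3. The log2 difference was -0.19 (95% interval -0.72 to 0.33; adjusted p = 0.701, limma), and it was 0.041 without Mtg16 KO replicate 3 and -0.041 without WT replicate 1. Its direction thus rested on Mtg16 KO replicate 3.

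Atp1b1, the beta subunit of the sodium pump, was measured at 1657, 937 and 1074 TPM in WT and at 946, 780.05 and 793 TPM in the libraries labelled Mtg16 KO. Mtg16 KO replicate 1 lay just above WT replicate 2, so the groups overlapped at that point alone. The log2 difference was -0.50 (95% interval -1.03 to 0.03; adjusted p = 0.362, limma), and with 1 library left out it ranged from -0.67 without WT replicate 2 to -0.26 without WT replicate 1.

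When secretion and absorption were set against each other within a library, as the mean log2(TPM + 1) of Cftr, Slc12a2 and Kcnq1 minus that of Slc9a3, Slc9a2, Slc26a3 and Slc26a6, the values were -0.76, 0.59 and 0.61 in WT and 0.80, 1.97 and 1.80 in the libraries labelled Mtg16 KO. Every library labelled Mtg16 KO was above every WT library, WT replicate 1 was the only one in which absorption genes had the higher mean, and Mtg16 KO replicate 1 was close to WT replicates 2 and 3. The group means were 0.15 ± 0.79 and 1.52 ± 0.63 (SD, n = 3 each), a difference of 1.38, which became 0.92 without WT replicate 1. Taken separately, the mean of the secretion genes was separate between the groups, at 6.14 to 6.60 in WT and 6.80 to 7.24 in Mtg16 KO, while the mean of the absorption genes overlapped, at 5.84 to 6.90 and 5.04 to 6.0. No test was made of these scores, since the genes were chosen with results known.

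As a ratio of TPM, Cftr stood at 0.575, 1.22 and 1.44 relative to Slc9a3 in WT and at 1.78, 5.32 and 4.59 in the libraries labelled Mtg16 KO. Slc12a2 stood at 0.375, 1.08 and 1.11 relative to Slc26a6 in WT and at 1.49, 4.01 and 3.11 in the libraries labelled Mtg16 KO. Both ratios were higher in all libraries labelled Mtg16 KO, and in each group replicate 1 had the lowest value. Within secretion, the ratio of Cftr to Slc12a2 was 0.750, 0.429 and 0.499 in WT and 0.503, 0.433 and 0.466 in the libraries labelled Mtg16 KO, with overlapping groups.

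In WT crypts the order of mean TPM was Atp1b1, Slc26a6, Slc12a2, Kcnq1, Slc26a3, Slc9a2, Slc9a3, Cftr and Slc4a4. Only Atp1b1 was separate from its neighbour in that order, and each of the other genes overlapped the next one over the 3 libraries, although Slc12a2 was above Kcnq1 in each of them. In the libraries labelled Mtg16 KO the order was Atp1b1, Slc12a2, Kcnq1, Cftr, Slc26a6, Slc26a3, Slc9a2, Slc4a4 and Slc9a3, with separate ranges between Atp1b1 and Slc12a2 and between Kcnq1 and Cftr. The other neighbours overlapped. In the order of means, Slc26a6 thus stood at place 2 in WT and place 5 in Mtg16 KO, Slc9a3 at places 7 and 9, and Cftr at places 8 and 4. These places depended on WT replicate 1: without it, an ordering added after the values were seen, Slc26a6 stood at place 4, Slc9a3 at place 9 and Cftr at place 5 in WT.

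Among 67 other genes of ion and water transport, 51 passed the filter and 0 were called in limma. At an unadjusted p under 0.05, 1 was higher and 9 were lower, against 6.53% higher and 8.05% lower among all tested genes. The groups did not overlap for 1 higher and 8 lower genes, against 9.94% and 11.1% of all tested genes. The mean was higher for 15 and lower for 36 of the 51, with a median log2 difference of -0.23 against -0.03 over all tested genes. These lists were also chosen with earlier results known, and no test was made over them.

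**Figure D2:**
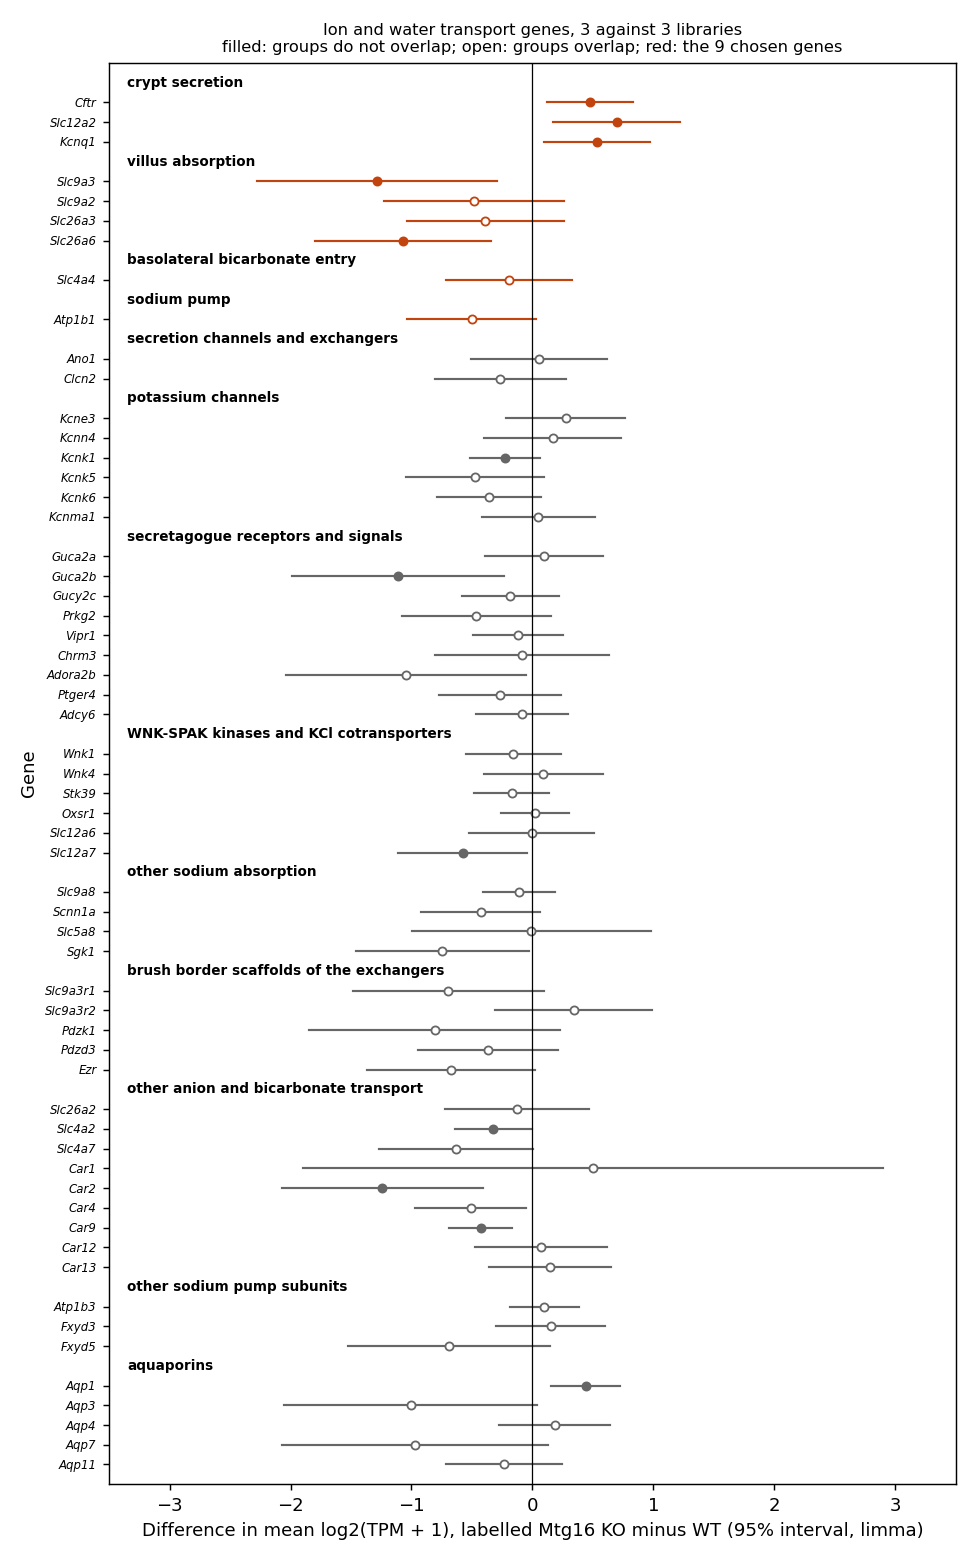
Differences in mean log2(TPM + 1) between libraries labelled Mtg16 KO and WT (x axis), with 95% intervals from limma, for the 9 transport genes in red and 49 other ion and water transport genes in grey, grouped by role along the y axis. Filled points mark genes whose groups of 3 libraries did not overlap: 3 higher and 2 lower among the 9, and 1 higher and 6 lower among the 49 drawn, while 2 further tested genes, both lower without overlap, are not reported here and not drawn.

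Of the partners of secretion, Kcne3, the subunit that holds KCNQ1 open in epithelia, was the most abundant of the 11 potassium channel genes. It was measured at 152, 233 and 247 TPM in WT and at 218, 239 and 298 TPM in the libraries labelled Mtg16 KO, with overlapping groups and a log2 difference of 0.28 (95% interval -0.22 to 0.77). The ratio of Kcnq1 to Kcne3 lay at 0.482, 0.453 and 0.472 in WT, a narrow range, and at 0.605, 0.669 and 0.438 in the libraries labelled Mtg16 KO, 2 of which were above all WT libraries and 1 below. Kcne1 and Kcne2, subunits that pair with KCNQ1 in other organs, were listed at 0 in all 6 libraries. Of the 6 potassium channel genes tested, 3 had higher and 3 lower means. The groups were separate for Kcnk1, a two-pore potassium channel, by a gap from 39.41 TPM in the lowest WT library to 39.38 TPM in the highest library labelled Mtg16 KO.

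Of 4 other chloride channels and exchangers, 3 were near or below the filter. Slc26a9 reached at most 0.13 TPM and Best2 at most 0.11 TPM in any library, and Ano1, the calcium-activated chloride channel, had means of 1.84 ± 0.753 TPM in WT and 1.88 ± 0.225 TPM in Mtg16 KO (SD, n = 3 each). Clcn2, the most abundant of these 4, had means of 60.5 ± 19.2 and 49.3 ± 10.2 TPM with overlapping groups. Of the 2 genes tested in this list, 1 had a higher and 1 a lower mean.

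Of 9 genes for receptors and signals that drive secretion, all tested, 8 had lower means, 2 were lower at an unadjusted p under 0.05 (Guca2b and Adora2b), and only Guca2b was separate between the groups. Guca2b encodes uroguanylin, a ligand of guanylate cyclase C, and was measured at 1953, 720.28 and 880.35 TPM in WT and at 694, 387 and 456 TPM in the libraries labelled Mtg16 KO. WT replicate 1 was again far above the rest, and the log2 difference was -1.11 (95% interval -1.99 to -0.23; adjusted p = 0.286, limma). Adora2b, an adenosine receptor, had means of 5.04 ± 3.94 and 1.60 ± 0.631 TPM (SD, n = 3 each) with overlapping groups and a log2 difference of -1.05 (95% interval -2.04 to -0.05; adjusted p = 0.323, limma). The receptor of uroguanylin, Gucy2c, had means of 176 ± 32.8 and 154 ± 22.4 TPM, with overlapping groups.

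The WNK and SPAK kinases regulate NKCC1 and the potassium-chloride cotransporters in opposite directions. Of 7 genes in this list, 6 were tested, with 2 higher and 4 lower means. Slc12a7, the cotransporter KCC4 and the most abundant of them, was measured at 114, 74.0 and 87.5 TPM in WT and at 71.0, 70.9 and 43.4 TPM in the libraries labelled Mtg16 KO. Its groups were separate, opposite in direction to Slc12a2, with a log2 difference of -0.58 (95% interval -1.11 to -0.04; adjusted p = 0.318, limma). The kinase genes Wnk1, Wnk4, Stk39 and Oxsr1 all overlapped, with log2 differences from -0.17 to 0.09.

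Of the 7 other genes of sodium absorption, 5 were tested and all 5 had lower mean log2 values. Of the epithelial sodium channel, which acts mainly in the distal colon, Scnn1b and Scnn1g were listed at 0 in all 6 libraries and Scnn1a had means of 10.3 ± 1.68 and 7.51 ± 1.98 TPM (SD, n = 3 each). Slc9a3r1, which encodes the scaffold NHERF1 that binds NHE3 and CFTR, was the most abundant of 5 brush border scaffold genes, at 916, 409.7 and 516 TPM in WT and 528, 323 and 268 TPM in the libraries labelled Mtg16 KO. The groups overlapped for each of those 5 genes, of which 1 had a higher and 4 a lower mean.

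In anion and bicarbonate transport, 9 of 10 further genes were tested, of which 3 had higher and 6 lower means. Car2, a cytosolic carbonic anhydrase that supplies protons and bicarbonate to the exchangers, was measured at 27.5, 8.72 and 11.7 TPM in WT and at 5.62, 4.81 and 5.92 TPM in the libraries labelled Mtg16 KO. The groups were separate and the WT values spread much more widely than those labelled Mtg16 KO (log2 difference -1.24, 95% interval -2.07 to -0.41; adjusted p = 0.263, limma). Car9, a membrane carbonic anhydrase, was measured at 88.0, 88.3 and 92.3 TPM in WT and at 62.9, 72.1 and 64.1 TPM in the libraries labelled Mtg16 KO. Unlike Slc9a3 and Slc26a6, Car9 varied little among the WT mice, WT replicate 1 included, and the groups were well apart (log2 difference -0.43, 95% interval -0.69 to -0.17; adjusted p = 0.254, limma). Slc4a2, the basolateral anion exchanger AE2, was also separate, at 69.3, 62.25 and 68.7 TPM in WT and 57.5, 58.3 and 44.7 TPM in the libraries labelled Mtg16 KO. Car4, the most abundant of the list, had means of 223 ± 54.4 and 153 ± 19.2 TPM with overlapping groups.

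For the sodium pump, 4 of 8 further subunit genes were tested, with 2 higher and 2 lower means. Atp1b3, an alternative beta subunit, overlapped at 40.7 ± 1.61 and 43.8 ± 4.74 TPM (SD, n = 3 each), and Fxyd4 was listed at 0 in all 6 libraries. Of 6 aquaporins, which let water follow the ions, 5 were tested, with 2 higher and 3 lower means. Aqp1 was the most abundant, at 108, 100.29 and 119.9 TPM in WT and 138, 157 and 151 TPM in the libraries labelled Mtg16 KO. It was the 1 gene of the 51 that was higher without overlap, with a log2 difference of 0.44 (95% interval 0.16 to 0.73; adjusted p = 0.263, limma).

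Markers of the crypt's cell types were read in the same libraries, and 0 of them were called in limma, so their values are descriptions. Counts of markers whose groups did not overlap stand beside 9.94% of all tested genes higher and 11.1% lower in that way. Summed over 16 enterocyte markers, led by Apoa1, the level was 43942, 15431 and 18904 TPM in WT and 15311, 8877 and 7670.2 TPM in the libraries labelled Mtg16 KO, so the groups did not overlap and WT replicate 1 stood apart as it did for the absorption genes. All 16 markers had lower means, 6 of them without overlap, with a median log2 difference of -1.09, beside -0.78 for the 4 absorption genes. The sum over 7 markers of stem and dividing crypt cells, led by Olfm4, was 995, 1500.3 and 1667 TPM in WT and 1698, 2226 and 1888 TPM in the libraries labelled Mtg16 KO, with WT replicate 1 lowest and Mtg16 KO replicate 2 highest as for Slc12a2 and Kcnq1. Of these 7, 6 had higher means and 3 were separate (Lgr5, Olfm4 and Axin2). The median log2 difference over the 7 was 0.32, beside 0.53 for the 3 secretion genes. Mki67 and Top2a, the markers of dividing cells among the 7, overlapped between the groups, with log2 differences of -0.17 and 0.11. The part of these cell types in the values of the transport genes was not tested.

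Relative to Vil1, which encodes the brush border protein villin and is among those 16 markers, Slc9a3 lay at 0.0550, 0.0403 and 0.0391 in WT and at 0.0354, 0.0232 and 0.0289 in the libraries labelled Mtg16 KO. Slc26a6 lay at 0.112, 0.106 and 0.102 relative to Vil1 in WT and at 0.0839, 0.0711 and 0.0916 in the libraries labelled Mtg16 KO. Both ratios to Vil1 were lower without overlap, but this depended on the marker. Of the 16 markers, 4 had a more negative log2 difference than Slc9a3 and 8 a more negative one than Slc26a6, with that of Vil1 at -0.70. Taken against each marker in turn, Slc9a3 was lower without overlap for 7 and higher for 2, and Slc26a6 was lower for 3 and higher for 3. Per 1000 TPM of the summed markers, Slc9a3 lay at 2.32, 2.67 and 2.26 TPM in WT and at 2.63, 2.03 and 2.05 TPM in the libraries labelled Mtg16 KO. On the same scale Slc26a6 lay at 4.75, 6.99 and 5.90 TPM in WT and at 6.24, 6.24 and 6.49 TPM in the libraries labelled Mtg16 KO. Against the summed markers, both genes thus overlapped between the groups.

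Of the secretory lineages, the sum of 5 Paneth cell markers, led by Defa24, was 6310.3, 13935 and 8372 TPM in WT and 20656, 17006 and 17234 TPM in the libraries labelled Mtg16 KO, and the groups were separate for 4 of the 5 genes. The sum of 6 enteroendocrine markers, led by Chgb, was 242, 245 and 197 TPM in WT and 349, 361 and 383 TPM in the libraries labelled Mtg16 KO, with all 6 genes separate. WT replicate 1 was the lowest of the 6 libraries in the Paneth cell sum and lay between both other WT libraries in the enteroendocrine sum. The sum of 7 goblet cell markers, led by Zg16, was 11803, 10009 and 7264 TPM in WT and 9087, 6575 and 6454 TPM in the libraries labelled Mtg16 KO, with 2 genes higher and 5 lower in mean, 2 of the latter (Clca1 and Zg16) without overlap, and overlapping sums. For 5 tuft cell markers, led by Avil, the sums were 38.4, 32.8 and 66.6 TPM in WT and 26.2, 32.8 and 33.5 TPM in the libraries labelled Mtg16 KO. The part of these lineages in the values of Cftr, Slc12a2 and Kcnq1 was not tested.

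Since the crypts came from the full gut and transporters differ along it, regional markers were read as well. Of the colonocyte markers, Hoxb13 was listed at 0 in all 6 libraries, Aqp8 reached at most 0.15 TPM, and Car1 was detected only in WT replicate 2 at 3.58 TPM and Mtg16 KO replicate 2 at 11.93 TPM. These markers were thus at or near 0 in all libraries but those 2. The sum of 5 proximal small intestine markers, led by Gata4, was 157, 113 and 157 TPM in WT and 99.5, 94.4 and 104 TPM in the libraries labelled Mtg16 KO, separate between the groups, with 3 of the 5 genes separate. For 2 ileum markers, led by Fabp6, the sums overlapped at 1191, 1950.0 and 748 TPM in WT and 2078, 1897 and 879.8 TPM in the libraries labelled Mtg16 KO. The Brunner gland markers Tff2, which led, and Muc6 summed to 0, 68.9 and 11.6 TPM in WT and 0, 1.2 and 33.8 TPM in the libraries labelled Mtg16 KO. The part of gut region in the transport gene values was not tested.

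Markers of immune and stromal cells gave low sums. Summed over 5 immune cell markers, led by Cd3e, the level was 86.7, 50.1 and 50.7 TPM in WT and 63.7, 38.3 and 28.2 TPM in the libraries labelled Mtg16 KO. Over 5 stromal markers, led by Vim, it was 15.9, 14.2 and 11.2 TPM in WT and 19.0, 15.7 and 12.5 TPM in the libraries labelled Mtg16 KO. Both sums overlapped between the groups.

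Genes with the most similar profiles were found by the root mean square difference of log2(TPM + 1) values, each gene centred on its mean over the 6 libraries. The nearest to Slc9a3 were Exoc3l4 (difference 0.0472), the apolipoprotein gene Apoa1 (0.0879) and 2010003K11Rik (0.105), while Slc26a6 ranked 35 by distance from Slc9a3 and Slc9a2 ranked 587. Exoc3l4 was measured at 146, 58.5 and 57.2 TPM in WT and at 56.1, 26.9 and 21.5 TPM in the libraries labelled Mtg16 KO. It thus shared with Slc9a3 both the high WT replicate 1 and the near contact of Mtg16 KO replicate 1 with the lower WT libraries. For Slc26a6 the nearest were Sult2b1 (0.0712), Slc7a7 (0.0785) and Erich4 (0.0798), and its family relative Slc26a3 ranked 747.

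For Slc12a2 the nearest profiles were those of Dach1 (0.0771), the cyclin D1 gene Ccnd1 (0.0855) and Stra6l (0.0858), with Kcnq1 at rank 23 and Cftr at rank 586. Ccnd1 was measured at 71.8, 109.84 and 135 TPM in WT and at 137, 202 and 146 TPM in the libraries labelled Mtg16 KO. The low WT replicate 1 and the high Mtg16 KO replicate 2 were common to Ccnd1 and Slc12a2. For Cftr, whose WT libraries had another order, the nearest were Ubxn7 (0.0449), Izumo4 (0.0456) and Dock11 (0.0504). These genes were the closest of 12268 over 6 libraries, and their likeness is a description of these libraries.

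Part of the exons of 3 transport genes lies opposite another gene on the other strand in the GENCODE annotation, and whether the counting used strand is not stated. Atp1b1 shared 575 bases, or 18.7% of its exon bases, with Nme7, which had 7.36 to 12.33 TPM. Kcnq1 shared 121 bases, or 2.96%, with the antisense transcript Kcnq1ot1, which had at most 0.19 TPM, and Cftr shared 129 bases, or 1.66%, with Gm15592. The exons of the other 6 genes overlapped none of another gene.

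In the RefSeq annotation of GRCm38.p6, Cftr spans chr6:18170687-18322770, Kcnq1 chr7:143106877-143427050, Slc9a3 chr13:74086255-74169442 and Slc9a2 chr1:40681712-40768885. Slc26a3 spans chr12:31433142-31473922, Slc26a6 chr9:108854043-108913049, Slc4a4 chr5:88793858-89239656 and Atp1b1 chr1:164437099-164458355. The genes within the secretion group, and those within the absorption group, lie on different chromosomes.

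Because Slc9a3 and Slc26a6 were lower without overlap, Cftr was higher, and Slc26a3 overlapped although it belongs to the family of Slc26a6, the 250 bases upstream of the RefSeq transcript start are shown for these 4 genes. Promoter entries matched 6 of the 9 genes, with no entry for Slc12a2, Slc9a2 and Kcnq1. Windows were searched on both strands for CANNTG, the E-box letters recognised by basic helix-loop-helix proteins, for CAGCTG, which is a case of CANNTG, and for CTTTGA, a core of TCF binding motifs. Capitals mark matches to CANNTG or CTTTGA, the latter as TCAAAG where it lies on the opposite strand. All sequences are from RefSeq, GRCm38.p6, plus strand, at chr13:74121163-74121412 for Slc9a3, chr9:108853793-108854042 for Slc26a6, chr12:31437969-31438218 for Slc26a3 and chr6:18170437-18170686 for Cftr, the windows of Slc9a3 and Slc26a3 lying inside the gene's full annotated span.
Slc9a3: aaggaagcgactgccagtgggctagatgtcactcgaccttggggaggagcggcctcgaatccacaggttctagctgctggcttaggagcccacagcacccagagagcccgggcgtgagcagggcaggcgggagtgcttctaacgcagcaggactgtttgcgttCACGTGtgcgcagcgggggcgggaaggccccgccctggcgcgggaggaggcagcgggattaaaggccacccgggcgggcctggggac
Slc26a6: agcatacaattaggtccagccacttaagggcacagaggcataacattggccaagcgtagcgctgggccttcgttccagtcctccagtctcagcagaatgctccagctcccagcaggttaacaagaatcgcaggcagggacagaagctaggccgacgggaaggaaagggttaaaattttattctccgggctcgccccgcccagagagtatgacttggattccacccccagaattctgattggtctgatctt
Slc26a3: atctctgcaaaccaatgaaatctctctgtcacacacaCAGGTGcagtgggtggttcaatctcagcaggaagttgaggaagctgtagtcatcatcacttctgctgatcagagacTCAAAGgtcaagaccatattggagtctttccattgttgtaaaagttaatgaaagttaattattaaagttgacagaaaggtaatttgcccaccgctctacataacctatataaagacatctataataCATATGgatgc
Cftr: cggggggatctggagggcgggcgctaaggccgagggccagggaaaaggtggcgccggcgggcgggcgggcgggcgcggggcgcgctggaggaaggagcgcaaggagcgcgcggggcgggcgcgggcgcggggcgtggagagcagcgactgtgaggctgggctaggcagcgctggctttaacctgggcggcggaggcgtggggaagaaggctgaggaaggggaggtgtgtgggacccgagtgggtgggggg

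The Slc9a3 window held 1 match to CANNTG, as CACGTG, and the Slc26a3 window held 2, as CAGGTG and CATATG, with 1 match to CTTTGA. No match to these letters was present in the windows of Slc26a6 and Cftr, and CAGCTG was in none of the 4. Over 32851 promoter windows of the same length, 66.2% held CANNTG, 13.0% CAGCTG and 13.8% CTTTGA, so an E-box match is common in any promoter. The windows also differed in base composition, with a GC content of 76.4% for Cftr, 67.6% for Slc9a3, 53.2% for Slc26a6 and 38.8% for Slc26a3, beside a median of 52.4% over all windows. The Atp1b1 window had no match and 70.4% GC, and the 2 windows listed for Slc4a4 had 0 matches and 1 match to CANNTG, with 82.0% and 48.8% GC. A match describes the letters of the window, and occupancy of these windows was not analysed here.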

How the data were processed

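Crypt RNA of 3 WT and 3 Mtg16 KO mice, grouped by the labels, was compared. The authors deposited TPM values from RSEM for 24736 genes. The submitters' processing notes name cutadapt 1.9.1, STAR 2.5.2a, RSEM 1.3.0, DESeq2 1.12.3 and the mm10 build without their roles. TPM keeps no read number, so depth and counting error are unknown, and precision is given by the spread between mice.

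Values were transformed as log2(TPM + 1), a pseudocount of 1 that understates the change of low genes. Genes with a mean of at least 1 TPM were fitted with limma 3.58.1 (lmFit and eBayes with an intensity trend, R 4.3.3) without covariates and called at a Benjamini-Hochberg adjusted p under 0.1. The calculation was tested on simulated data. Single values of a few genes in the lists are not reported here. The 9 genes, the lists and the comparisons were chosen with earlier results of these data known. Named besides the 9 were, in each transport list, the most abundant gene and up to 3 tested genes whose groups did not overlap, by size of difference, and the 3 nearest profiles of Cftr, Slc12a2, Slc9a3 and Slc26a6. Other transport genes named, and the ratios to enterocyte markers, were picked after their values were seen. Alternatives were a pseudocount of 0.1, no filter, a mean of at least 5 TPM, a replicate block, rescaling by median ratios, an adjusted p under 0.05, no intensity trend, quantile normalization and leaving out each library. Reads of overlapping antisense genes (Nme7, Kcnq1ot1) cannot be told apart where counting ignored strand.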

Additional observations from a re-analysis of the deposited data

How the results depend on the processing

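The number of genes called, 4 over all 6 libraries, was 43 without a filter on low values, 15 with a mean of at least 5 TPM, 1 after median-ratio rescaling, and 0 with quantile normalization, without the intensity trend or at an adjusted p under 0.05. Leaving out 1 library gave 0 to 20 calls. The cause was not tested. Of the 9 transport genes, 0 were called in each of these settings. The difference of secretion minus absorption ranged from 0.92 to 1.74 over the libraries left out. The log2 differences of 8 of the 9 genes kept their sign in every setting, and that of Slc4a4 ranged from -0.32 to 0.041 over the libraries left out, with 0.041 without Mtg16 KO replicate 3.

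With the replicate number as a block, the calls came to 1201 (385 higher, 816 lower) and included 5 of the 9 transport genes: Slc12a2, Kcnq1, Slc9a3, Slc26a6 and Atp1b1 (adjusted p 0.0350, 0.0798, 0.00437, 0.00476 and 0.0942 in limma). No source used here states that mice with the same number belong together. Deviations from the group means correlated between same-numbered libraries at 0.429, 0.0753 and 0.237 for numbers 1 to 3, so not every pair passed the limit of 0.1, and WT replicate 2 correlated best with Mtg16 KO replicate 3 (0.198), so not every library correlated best with its own number. Depth is unknown, so no detection limit can be given for genes listed at 0.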
